A study of Mus musculus with 105 samples.

Results

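The miR-200 family was followed through every small-RNA library of a study of how fast microRNAs (miRNAs) are made and lost in mouse cells. The family was taken by name as the 3p strands mmu-miR-141-3p, mmu-miR-200c-3p, mmu-miR-429-3p, mmu-miR-200b-3p and mmu-miR-200a-3p, 5 of the 1013 miRNAs in the tables, and all 5 were found. The prefix mmu, for mouse, is left out below. Cells were given 5-ethynyluridine (5EU), a uridine analogue that is built into new RNA and lets that RNA be captured. An EU library holds what was captured after a given labelling time, and its input library is made from the same RNA ahead of the capture. One set of libraries over labelling time is called a course.

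ESC is the embryonic stem cell line v6.5 (label strain C57BL/6), a single line, kept in medium with LIF and the inhibitors PD0325901 and CHIR99021 and given 125 µM 5EU. CIMEF are C57BL/6J embryonic fibroblasts held in contact inhibition for 5 days before 5EU, and DMEF are C57BL/6J embryonic fibroblasts that were dividing. CyrKO are contact-inhibited fibroblasts that lack the long noncoding RNA Cyrano. All fibroblasts received 400 µM 5EU. ESC, CIMEF and DMEF had 2 courses each and CyrKO had 1. ESC were sampled up to 24 h, DMEF up to 72 h, and CIMEF and CyrKO up to 168 h. Unlabelled 0 h libraries exist for course 1 of the wild-type lines. The labels give replicate numbers but not separate derivations of the cells. Between lines, p-values thus measure only the spread between these courses, or between the mRNA libraries. In the slope on labelling time they measure the scatter of single libraries within courses. Where the course is a block, they measure how the EU difference from input varies between courses, with the spread pooled over miRNAs. Over 1 to 4 h that spread is also pooled over the wild-type lines.

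miR-200 miRNAs are known as keepers of the epithelial state: they pair with the messenger RNAs of the repressors Zeb1 and Zeb2, and those proteins in turn silence the miR-200 genes. The loop is a standard account of how cells switch between epithelial and mesenchymal forms. Naive stem cells grow as compact epithelial colonies, and fibroblasts are mesenchymal.

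The family is read through its seeds, bases 2 to 8, which choose the targets. The 5 mature strands are shown with the seed in capitals, 5′ to 3′, from RefSeq (GRCm38.p6), because the same 5 molecules are compared throughout.
mmu-miR-200b-3p: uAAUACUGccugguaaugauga
mmu-miR-200c-3p: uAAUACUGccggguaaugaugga
mmu-miR-429-3p: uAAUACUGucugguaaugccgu
mmu-miR-200a-3p: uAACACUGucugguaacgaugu
mmu-miR-141-3p: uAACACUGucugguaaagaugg

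Of these, 3 share the seed AAUACUG and 2 share AACACUG, and no other of the 1679 mature mouse miRNAs in the reference table has either seed. Counting from the 5′ end, miR-200b-3p differs from miR-200c-3p by U11G and A22G over the 22 shared positions. miR-200a-3p differs from miR-141-3p by C17A and U22G. Reads of such near-identical strands are separated by few bases, and the mismatch setting of the alignment is not given in the sources used here, so exchange of counts within these pairs was not tested.

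The genes lie in 2 clusters, both on the minus strand. On chromosome 4 are Mir200b (chr4:156055681-156055750), Mir200a (chr4:156054896-156054985) and Mir429 (chr4:156053905-156053987), with 695 and 908 bases between neighbours. All 3 fall within the span of the long noncoding RNA gene Gm13648. On chromosome 6 are Mir200c (chr6:124718322-124718390) and Mir141 (chr6:124717914-124717985), 336 bases apart and between the protein-coding genes Phb2 and Ptpn6, 968 and 2316 bases away. Each pair of near-identical strands therefore has 1 gene in each cluster, and so the seeds cross the clusters.

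Levels below are CPM, the miRNA's count scaled to a fixed total of miRNA counts per course (counts per 1000000), summed over the libraries of a course. Input libraries held 912688 to 9117300 miRNA counts and EU libraries above 0 h held 7922 to 2463188, with the lowest depths in ESC. Stem-cell miRNAs separated the lines: miR-294-3p was at 114680 CPM or more in ESC and at 2.92 CPM or less in all fibroblasts, while miR-214-3p, a fibroblast miRNA, was at 7792 CPM or more in fibroblasts and at 0.0570 CPM or less in ESC. Of the DMEF EU columns, 5 of course 2 may hold either of 2 sequencing runs or both.

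In ESC input all 5 miRNAs were of middling abundance. miR-200c-3p was at 1118 and 894 CPM in courses 1 and 2, which ranks it 96th and 112th among all miRNAs. miR-200b-3p stood at 918 and 890 CPM. miR-200a-3p was at 621 and 697 CPM, and miR-141-3p at 739 and 468 CPM. miR-429-3p was lowest by its mean, at 479 and 491 CPM. In that order of means the courses of miR-200c-3p and miR-200b-3p overlapped, and so did those of miR-200a-3p and miR-141-3p and those of miR-141-3p and miR-429-3p, whereas both values of miR-200b-3p lay above both of miR-200a-3p. Ligation and PCR efficiencies differ between small RNAs and were not corrected. The 5 miRNAs together made up 3875 and 3440 CPM, or 3657 ± 308 (SD, n = 2).

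Fibroblasts had far less. The summed family level was 8.86 and 5.13 CPM in CIMEF, 4.73 and 5.72 CPM in DMEF, and 7.72 CPM in CyrKO. No input library of any fibroblast line came near the ESC range: the highest single fibroblast input library held 10.8 CPM of the summed family and the lowest ESC input library 2890 CPM. In these bulk cultures fewer cells that express a miRNA and less of it per cell cannot be told apart.

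**Figure D1:**
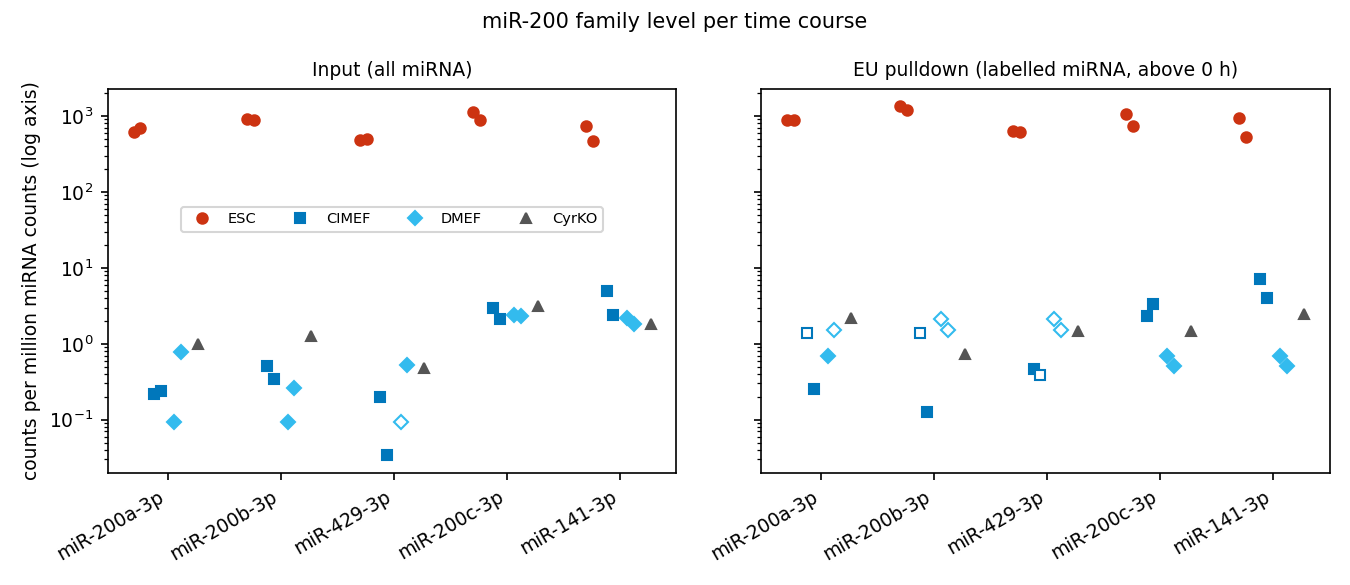
Level of each family member per course (log axis, CPM), in input on the left and in the EU pulldown on the right; each point is 1 course and an open symbol is a course with 0 counts, drawn at 3 counts. ESC points lie between 468 and 1330 CPM over both panels, and among fibroblast input points miR-200c-3p and miR-141-3p sit above the 3 miRNAs of the chromosome 4 cluster.

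The fibroblast remainder was unequal between the clusters. miR-141-3p was at 4.99 and 2.38 CPM in CIMEF, 2.18 and 1.82 CPM in DMEF and 1.82 CPM in CyrKO. miR-200c-3p was at 2.95 and 2.14 CPM in CIMEF, 2.36 and 2.34 CPM in DMEF and 3.16 CPM in CyrKO. These 2 miRNAs of chromosome 6 were counted in every fibroblast course.

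The chromosome 4 miRNAs were scarcer. miR-200b-3p was at 0.506 and 0.340 CPM in CIMEF and at 0.0946 and 0.260 CPM in DMEF. miR-200a-3p was at 0.220 and 0.238 CPM in CIMEF and at 0.0946 and 0.779 CPM in DMEF. miR-429-3p gave 9 and 1 counts in CIMEF, and 0 and 4 counts in DMEF, where a count of 0 in course 1 allows up to 0.0946 CPM. All wild-type fibroblast values of these 3 miRNAs lay below every value of miR-141-3p and miR-200c-3p. In CyrKO they were at 1.27 (miR-200b-3p), 1.00 (miR-200a-3p) and 0.478 CPM (miR-429-3p), closer to the chromosome 6 miRNAs.

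Put as a share of all family counts, the chromosome 6 cluster gave 89.6% (95% exact binomial interval 86.2 to 92.4) and 88.1% (81.8 to 92.8) in the CIMEF courses. In DMEF the shares were 96.0% (91.5 to 98.5) and 72.7% (57.2 to 85.0). ESC had 47.9% (47.5 to 48.3) and 39.6% (39.2 to 40.0). The wild-type fibroblast courses averaged 86.6% ± 9.86 (SD, n = 4) and the ESC courses 43.8% ± 5.88 (SD, n = 2), a difference of 42.8 percentage points with no overlap. An exact two-sided permutation test over these 6 courses gave p = 0.0667, which is the smallest p the design allows. CyrKO, with 64.4% (58.9 to 69.6), lay between. Intervals cover counting error only, since reads of 1 library are not independent molecules.

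Relative to its ESC mean, miR-141-3p kept 0.610% in CIMEF and 0.331% in DMEF, and miR-200c-3p kept 0.253% and 0.234%. miR-200b-3p kept 0.0468% and 0.0196%. The most abundant stem-cell miRNA, miR-294-3p, was at 0.000227% to 0.000672% of its ESC level in the wild-type fibroblast courses, while the lowest line mean of a family member, that of miR-200b-3p in DMEF, was at 0.0196%. In DMEF course 1 miR-429-3p had 0 counts and miR-294-3p had 23. Markers of epithelial cells that a fibroblast culture could hold were read in the mRNA libraries: Krt5 and Krt14 were at 0.0870 CPM or less in all of them. Trp63, a keratinocyte regulator, was at 1.97 and 13 CPM in CIMEF and at 0.640 and 0.483 CPM in DMEF. The whole list of 7 genes summed to 27.6 and 22.2 CPM in CIMEF and to 10.5 and 12.6 CPM in DMEF, and without Cdh1 to 2.45 and 13.5 CPM and to 1.60 and 1.16 CPM. The part of such cells in the fibroblast counts was not tested.

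All 5 miRNAs passed the test as higher in ESC input than in DMEF and than in CIMEF, with edgeR's quasi-likelihood test and Benjamini-Hochberg adjustment at 0.05. By comparison 22.8% of the 812 tested miRNAs were called higher against DMEF and 27.3% against CIMEF, and the median over all tested miRNAs was 0.52 and 0.43 on the log2 scale. Against DMEF the largest log2 difference was that of miR-200b-3p, 12.25 (SE 0.85, adjusted p = 0.000273), and the smallest that of miR-141-3p, 7.98 (SE 0.78, adjusted p = 0.000862). Against CIMEF the values ran from 11.26 for miR-429-3p (SE 2.02, adjusted p = 0.0051) to 6.69 for miR-141-3p (SE 0.74, adjusted p = 0.00108). The fitted values of the 3 chromosome 4 miRNAs rest on 4 to 33 fibroblast counts per line, and their order depends on single courses: without DMEF course 2 the value of miR-429-3p against DMEF was 16.35 and that of miR-200b-3p 12.63. Without CIMEF course 2 the value of miR-429-3p against CIMEF was 10.61 and that of miR-200a-3p 10.90.

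No family member passed the test between contact-inhibited and dividing fibroblasts or between the knockout and its wild type. Between CIMEF and DMEF input, 0 of 5 family members and 0 of 812 miRNAs passed with edgeR, and DESeq2 also called 0 of 5. One member had an unadjusted p under 0.05 in edgeR, miR-200b-3p, with a log2 difference of 1.88 (adjusted p = 0.19). For CyrKO against CIMEF 0 of 5 passed with edgeR and with DESeq2, 1 had an unadjusted p under 0.05, and 0.862% of all tested miRNAs were called higher. The knockout has 1 course, so its own spread is not measured and the fit assumes that it varies like the other lines. There miR-200a-3p, miR-200b-3p and miR-429-3p had log2 differences of 2.24, 1.69 and 2.08 (adjusted p = 0.49, 0.41 and 0.61). In the same input course miR-205-5p, an miRNA of stratified epithelia, was at 128 CPM. It was at 1.07 to 2.22 CPM in the other fibroblast courses and at 1498 and 784 CPM in ESC. In the EU libraries its TMM-scaled CPM was 10.9 in CyrKO, against 0.782 to 8.69 in the other fibroblast courses (log2 difference from CIMEF 2.37). In input that difference was 6.39 (SE 0.81) under the same assumption. The other 4 epithelial miRNAs measured, miR-96-5p, miR-182-5p, miR-183-5p and miR-375-3p, had log2 differences of -0.09 to 0.41 (adjusted p = 0.67 to 0.99). Of the stem-cell miRNAs, miR-294-3p was at 2.92 CPM (log2 3.38), miR-295-3p was at 2.37 CPM (log2 3.6) and miR-302a-3p had 0 counts. In ESC miR-302a-3p was far rarer, at 898 and 1842 CPM, where miR-294-3p was at 114680 CPM or more. The part of other cells' RNA in the knockout's family counts was not tested.

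Each hairpin also yields a 5p strand, which is usually degraded after the 3p strand has been loaded. In ESC input the 5p strands of Mir200b and Mir200a reached 28.7 and 22.3 CPM and 18.5 and 18.2 CPM in the 2 courses. miR-141-5p was at 15.4 and 10.3 CPM, miR-200c-5p at 11.6 and 6.71 CPM and miR-429-5p at 1.88 and 2.03 CPM. All 5 passed as higher in ESC against DMEF and CIMEF, where 22.8% and 27.3% of the 812 tested miRNAs did. They passed the expression filter only through their ESC counts, so these calls add nothing to the counts that follow. Over all fibroblast input courses the 5p strands had 4 counts in total: 2 of miR-141-5p in CIMEF, 1 of miR-200c-5p in DMEF and 1 of miR-200b-5p in CyrKO. Against 3 counts over the CIMEF courses, where miR-200b-5p had none, its ESC mean of 25.5 CPM was at least 637-fold higher.

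Within the ESC courses some members rose in input with time in 5EU and others had no steady trend. The summed family of course 1 was at 3388 CPM at 0 h, 2890 CPM at 4 h and 5603 CPM at 24 h. miR-200a-3p was at 529, 481, 406, 419, 361, 582 and 1138 CPM at 0, 1, 2, 4, 8, 16 and 24 h of course 1. In course 2, from 1 h on, it was at 482, 614, 530, 630, 685 and 1136 CPM. Both courses thus had their highest value at 24 h, 2.37 and 2.36 times the 1 h value. miR-429-3p ran from 391 CPM at 1 h to 750 CPM at 24 h in course 1 and from 385 to 646 CPM in course 2.

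miR-200b-3p moved from 775 to 1309 CPM between 1 and 24 h in course 1 and from 770 to 1042 CPM in course 2. miR-200c-3p changed least, from 988 to 1280 CPM and from 835 to 932 CPM, or 1.30 and 1.12 times. miR-141-3p had no steady course: it fell from 879 CPM at 0 h to 381 CPM at 8 h in course 1 before reaching 1126 CPM at 24 h, and it ranged between 323 and 569 CPM in course 2. The 3 chromosome 4 miRNAs thus had larger ratios of 24 h to 1 h than miR-200c-3p in both courses. So did miR-141-3p of chromosome 6, with ratios of 1.65 and 1.23.

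**Figure D2:**
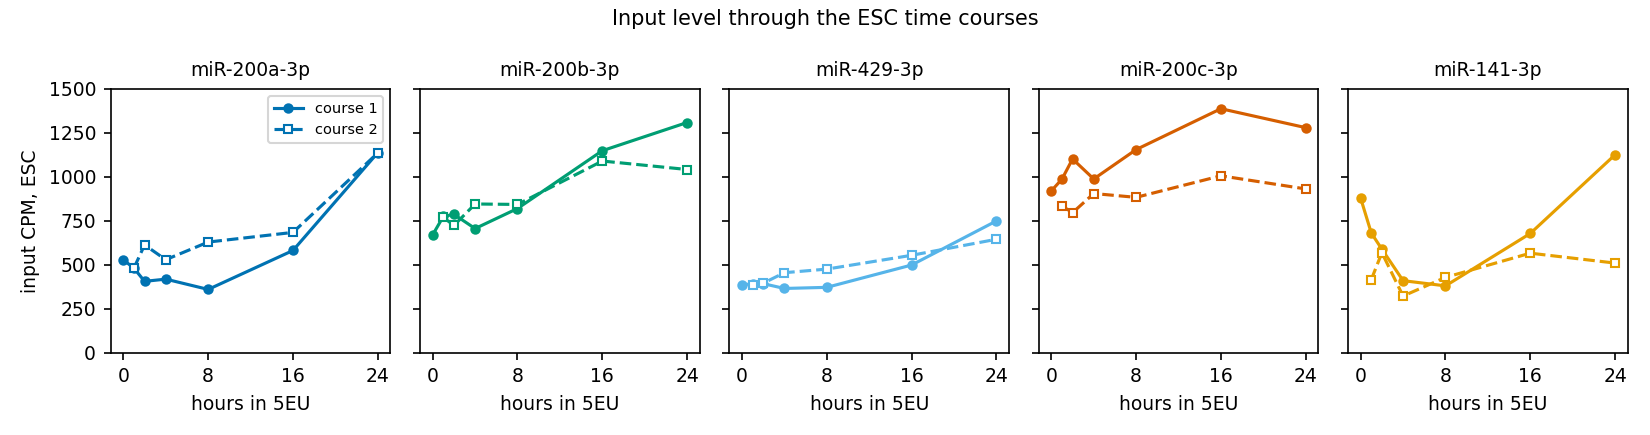
Input CPM of each member against hours in 5EU in the 2 ESC courses (filled, course 1; open, course 2). The miR-200a-3p, miR-200b-3p and miR-429-3p lines end above their 1 h values in both courses, and the miR-141-3p line of course 1 dips to 381 CPM at 8 h.

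In the test of the slope on log2(hours + 1), with the course as a term, 3 of 5 family members passed as rising, where 3.45% of the 579 tested miRNAs did. The slope was 0.17 for miR-200b-3p (SE 0.03, adjusted p = 0.0014), 0.17 for miR-429-3p (SE 0.03, adjusted p = 0.00622) and 0.09 for miR-200c-3p (SE 0.02, adjusted p = 0.03), in log2 units per doubling of hours + 1. miR-200a-3p had the steepest slope, 0.21, with adjusted p = 0.0556, and miR-141-3p a slope of 0.04 with adjusted p = 0.80. The median slope of all miRNAs was 0.00. The 5p strands of Mir200a and Mir200b also passed, with slopes of 0.33 and 0.28. When libraries were scaled to the sequencing standards instead, 0 of 5 passed and 2 had an unadjusted p under 0.05, while 0.345% of all miRNAs were called. The slopes were then 0.19 for miR-200a-3p, 0.14 for miR-200b-3p, 0.15 for miR-429-3p, 0.05 for miR-200c-3p and 0.02 for miR-141-3p. Neither 5p strand passed with that scaling, with slopes of 0.30 and 0.24 and adjusted p = 0.10 for both. Course 2 alone gave 1 call and course 1 alone gave 0. Time in culture and time in 5EU run together in these courses and cannot be told apart.

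Across the 13 ESC input libraries members differed in how closely they moved together. The measure was log2 of CPM + 1 on unscaled miRNA totals, less the course mean. Within the chromosome 4 cluster Pearson's r was 0.74 to 0.93. The cluster mates miR-200c-3p and miR-141-3p had r = 0.15. By contrast miR-200c-3p had r = 0.91 with miR-200b-3p, and miR-141-3p had r = 0.75 with miR-200a-3p, the near-identical strands from the other cluster. The libraries share culture and depth, so these are descriptions. Of the 312 miRNAs with at least 100 counts in each of these libraries, the 5 outside the family with the pattern most like its mean were miR-29a-3p (r = 0.95), miR-34a-5p (0.91), miR-30a-5p (0.86), miR-29b-3p (0.84) and miR-497a-5p (0.83). Without both 24 h libraries their r was 0.94, 0.79, 0.54, 0.75 and 0.77. Over the 7 input courses TMM-scaled CPM was used. The closest 5 of 430 miRNAs with at least 10 CPM in ESC were miR-291a-5p, miR-292a-3p, miR-291b-3p, miR-293-3p and miR-291a-3p. Their r was 0.998 to 0.999, over points that fall into 2 ESC and 5 fibroblast courses.

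New synthesis was read from the EU libraries. In ESC the summed EU signal of the family, in counts per 100000 counts of the sized standards added to each sample, was 2.26 in the unlabelled library, which held 5 family counts. In course 1 it was 7.39, 31.7, 61.1, 86.6, 219 and 437 at 1, 2, 4, 8, 16 and 24 h. In course 2 it was 18.9, 77.3, 166, 346, 564 and 955. The last sample had the highest signal in both courses: from 8 to 24 h it grew 5.05-fold in course 1 and 2.76-fold in course 2, over a span in which labelling time grew 3-fold. Scaled to the named standards dme-miR-14 and xtr-miR-427, which had few counts in EU libraries of ESC (325 to 961), the growth was 5.35-fold and 1.33-fold, with a dip at 16 h in course 2.

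miR-200b-3p gave the most EU counts, with 5, 3, 13, 37, 75 and 159 in course 1 and 4, 18, 46, 114, 84 and 224 in course 2. Per 100000 standards it reached 110 and 303 at 24 h. miR-429-3p gave the fewest in course 1, reaching 57.3 at 24 h, and miR-141-3p in course 2, with 112. At 1 h no member had more than 7 counts, so single early values are imprecise.

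**Figure D3:**
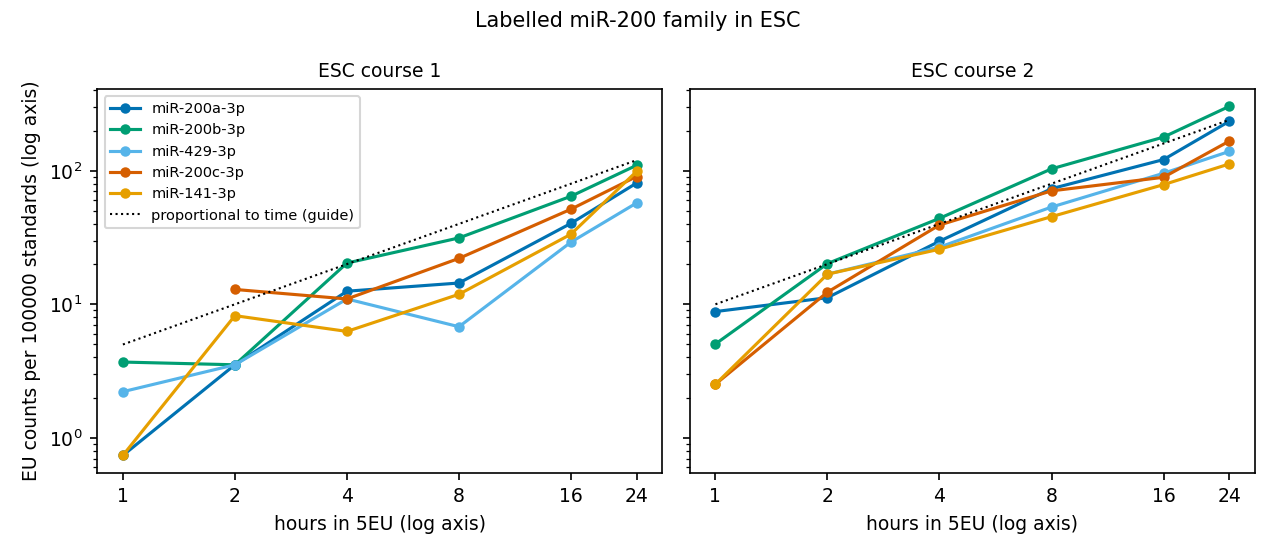
EU counts of each member per 100000 standard counts against labelling time in ESC (both axes log), with a dotted guide proportional to time; times with 0 counts are not drawn. All 5 members are highest at 24 h in both courses, and miR-200b-3p ends above the others, at 110 and 303.

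An approach-to-equilibrium curve was fitted to each member, in which a flattening of the EU signal sets the half-life. No member flattened enough to bound its half-life from above: each upper 95% limit reached the end of the grid, 240 h. In course 1 the best value of all 5 was the end of the grid, with lower limits of 20.1 h (miR-200a-3p), 14.5 h (miR-200b-3p), 13.3 h (miR-429-3p), 9.44 h (miR-200c-3p) and 22.7 h (miR-141-3p). In course 2 the best values were 19.5 h for miR-141-3p, 27.4 h for miR-429-3p, 64.9 h for miR-200c-3p and the end of the grid for miR-200a-3p and miR-200b-3p, with lower limits of 6.03 to 21.2 h. For comparison, the median over the 193 and 262 miRNAs fitted was 9.61 and 9.20 h. Fitted values of the family were longer than those of 168 of 193 miRNAs in course 1 and than those of 217 to 256 of 262 in course 2. In course 1 the remaining miRNAs were tied with the family at the end of the grid. Over all miRNAs, 31 and 20 fits stopped at a limit of the grid. These ranks were computed with the sized standards only. Dividing the EU signal by the input level of the same hour, which rose over the same span, gave a median over members of 17.0 h, and scaling to the EU total in place of the standards gave 2.41 h. The half-life thus depends on the scaling.

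Set against the input of the same cells, the family was under-represented among labelled miRNAs at first, as were most tested miRNAs. Over 1 to 4 h the median log2 difference of EU from input was -1.1 over all tested miRNAs. It was -1.26 over the family (TMM, no block). The ratio of its EU CPM to its input CPM was 0.381, 0.723 and 0.785 at 1, 2 and 4 h of course 1 and 0.395, 0.747 and 0.861 in course 2. From 8 h on it was 1.07, 1.19 and 1.10 in course 1 and 1.11, 1.12 and 1.26 in course 2. The crossing came between 4 and 8 h in both courses, and these ratios by hour were not computed for other miRNAs.

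Over 1 to 4 h none of 5 passed as lower in EU than in input with edgeR without the course as a block, where 6.38% of 643 miRNAs did, and 1 had an unadjusted p under 0.05. DESeq2 also called 0. EU and input of a course come from the same cells, and with the course as a block all 5 passed as lower, where 37% of all miRNAs did. The log2 differences in that fit ran from -0.97 for miR-429-3p (SE 0.40, adjusted p = 0.0359) to -1.78 for miR-200c-3p (SE 0.36, adjusted p = 6.82e-06). Its spread was pooled over miRNAs and the wild-type lines and was not measured in the ESC courses alone. These values include a shift of all miRNAs, whose median was -1.08, so that relative to it only miR-429-3p lay above and the others below. With another scaling (RLE, no block) the median of all miRNAs was -0.43 and that of the family -0.57.

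Over 16 to 24 h the sign was the opposite. None of 5 passed as higher in EU without the block, where 2.08% of 576 miRNAs did, and 1 had an unadjusted p under 0.05. With the course as a block 4 of 5 passed, where 12.2% did: miR-200b-3p (log2 0.62, SE 0.11, adjusted p = 0.00854), miR-429-3p (0.46), miR-200a-3p (0.44) and miR-141-3p (0.44). miR-200c-3p was at 0.06 (adjusted p = 0.69). The median over all miRNAs was -0.01.

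The strands of the hairpins behaved unlike each other in this comparison. In ESC input the 5p strands were 1.93% (1.83 to 2.03) and 1.70% (1.60 to 1.81) of all 5p and 3p counts of the 5 hairpins. Among miRNAs labelled for 1 to 4 h they were 9.52% (4.20 to 17.9), 8 of 84 counts, in course 1 and 9.19% (6.09 to 13.2), 26 of 283 counts, in course 2. At 8 h the share was 8.93% (4.37 to 15.8) and 3.78% (2.13 to 6.16). At 16 to 24 h it was 1.99% (1.18 to 3.12) and 2.51% (1.63 to 3.68). The early intervals lay above the input intervals in both courses and the late intervals overlapped them.

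**Figure D4:**
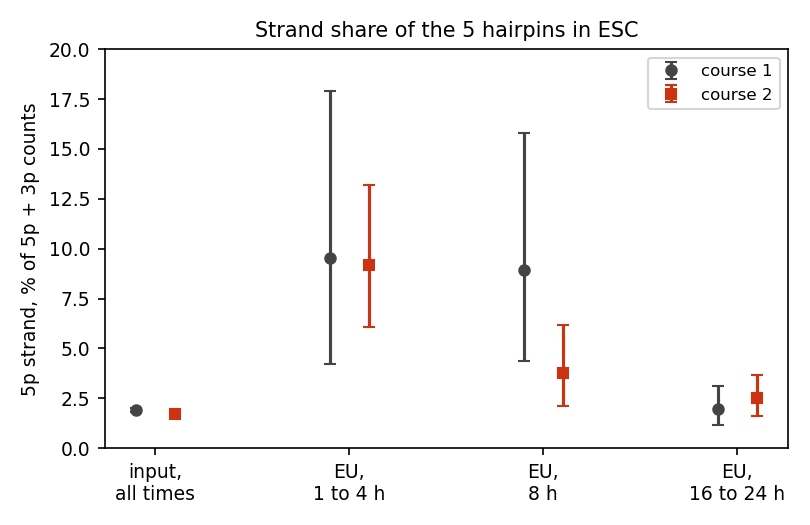
Share of the 5p strands in all counts of the 5 hairpins in ESC, per course, with 95% exact binomial intervals. The share is 9.52% and 9.19% among miRNAs labelled for 1 to 4 h and 1.93% and 1.70% in input.

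By hairpin, Mir200a had 3 of 15 early counts on the 5p strand in course 1 and 9 of 57 in course 2 (15.8%), and its input share was 2.89% and 2.54%. For Mir200c it was 5.26% (1 of 19) and 10.0% (6 of 60), against 1.03% and 0.746% in input. Mir429 showed 0 of 13 and 1 of 44 counts. In the test over all miRNAs, the log2 difference of EU over 1 to 4 h from input was positive for the 4 tested 5p strands, from 0.47 for miR-200b-5p to 1.82 for miR-200a-5p, and negative for all 5 3p strands. None of the 5p strands passed, with adjusted p of 0.15 to 0.73, and with the course as a block miR-200a-5p did (log2 1.84, adjusted p = 0.0453).

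Across lines, all 5 members passed as higher in ESC EU than in DMEF EU and than in CIMEF EU, where 13.5% and 18.6% of 606 miRNAs did. Apart from miR-141-3p, they passed the expression filter only through their ESC counts. miR-200b-3p was at 1330 and 1208 CPM in ESC EU. DMEF had no count of it, and against 3 counts over both DMEF courses the ESC mean was at least 1449-fold higher. miR-141-3p was at 947 and 527 CPM in ESC, at 7.02 and 3.96 CPM in CIMEF and at 0.696 and 0.503 CPM in DMEF. The log2 difference of miR-141-3p was 6.14 against CIMEF (SE 0.74, adjusted p = 0.00103) and 9.64 against DMEF (SE 0.89, adjusted p = 0.000415).

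CIMEF gave labelled counts of the chromosome 6 miRNAs. Labelled miR-141-3p had 0, 1, 1, 5, 0, 2 and 6 counts at 1, 2, 4, 8, 24, 72 and 168 h of CIMEF course 1 and 0, 2, 0, 8, 4, 8 and 9 in course 2, and it had 0 in the unlabelled library. Labelled miR-200c-3p had 5 counts in course 1 and 26 in course 2, of which 11 came at 168 h. In DMEF both had 1 count in each course. Together the family had 81 EU counts in CIMEF, 5 in DMEF and 34 in CyrKO. Between CIMEF and DMEF EU, 0 of 5 passed with edgeR (0.99% of all miRNAs were called higher), 2 had an unadjusted p under 0.05, and DESeq2 called 1, miR-141-3p. The log2 differences were 3.5 for miR-141-3p (SE 0.75, adjusted p = 0.0985) and 2.69 for miR-200c-3p (SE 0.76, adjusted p = 0.15). Without CIMEF course 1 there were 2 calls and without CIMEF course 2 there was 1.

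The mRNA libraries, 2 per wild-type line with 23030907 to 34093791 counts, show the family's partners. Values are CPM after TMM scaling, compared within a gene only. Zeb1 was at 17.2 and 19.0 CPM in ESC, 158 and 159 in CIMEF and 148 and 131 in DMEF. Zeb2 was at 1.72 and 2.01 CPM in ESC, 165 and 168 in CIMEF and 74.8 and 79.3 in DMEF. ESC lay below both fibroblast lines for both genes. Zeb2 differed from DMEF by -5.37 on the log2 scale (SE 0.17, adjusted p = 2.95e-06) and Zeb1 by -2.94 (SE 0.14, adjusted p = 6.64e-06).

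Of the 5 repressors of the family (Zeb1, Zeb2, Snai1, Snai2 and Twist1), all 5 passed as lower in ESC in both comparisons. Over all 18094 genes tested, 30.5% were lower and 30.3% higher against DMEF, and 37.7% and 38.2% against CIMEF. The median log2 of the list was -4.76 and -5.38, where that of all genes was 0.06 in both. Snai2, a zinc-finger repressor of E-cadherin, was at 1.97 and 2.12 CPM in ESC against 159 and 123 in CIMEF. Snai1 was the mildest against CIMEF, with a log2 difference of -1.15 (SE 0.31, adjusted p = 0.0121). In the ESC libraries the 6 fibroblast markers were at 0.831% to 5.59% of their mean fibroblast level. Zeb2 (1.42% and 1.65%), Snai2 (1.98% and 2.13%) and Twist1 (2.53% and 3.29%) lay in that range. Zeb1 (11.6% and 12.8%) and Snai1 (12.5% and 12.1%) lay above it. The part of fibroblast reads in the ESC values was not tested.

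Factors named as activators of the family or of epithelial and stem-cell genes went the other way. Of 9 listed, 8 were tested, and 7 passed as higher against DMEF and 8 against CIMEF. Elf3, an epithelial ETS factor, was at 92.7 and 86.5 CPM in ESC and below 1 CPM in all fibroblast libraries. Grhl3, a grainyhead factor of surface epithelia, was at 22.8 and 21.3 CPM against 0.409 or less. Ovol2, which represses Zeb1, was at 5.28 and 4.09 CPM, and Grhl2 at 1.76 and 1.49 CPM, each with at most 0.129 CPM in fibroblasts. Myc was the gene that did not pass against DMEF, at 70.0 and 66.7 CPM in ESC and 110 and 65.9 in DMEF.

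**Figure D5:**
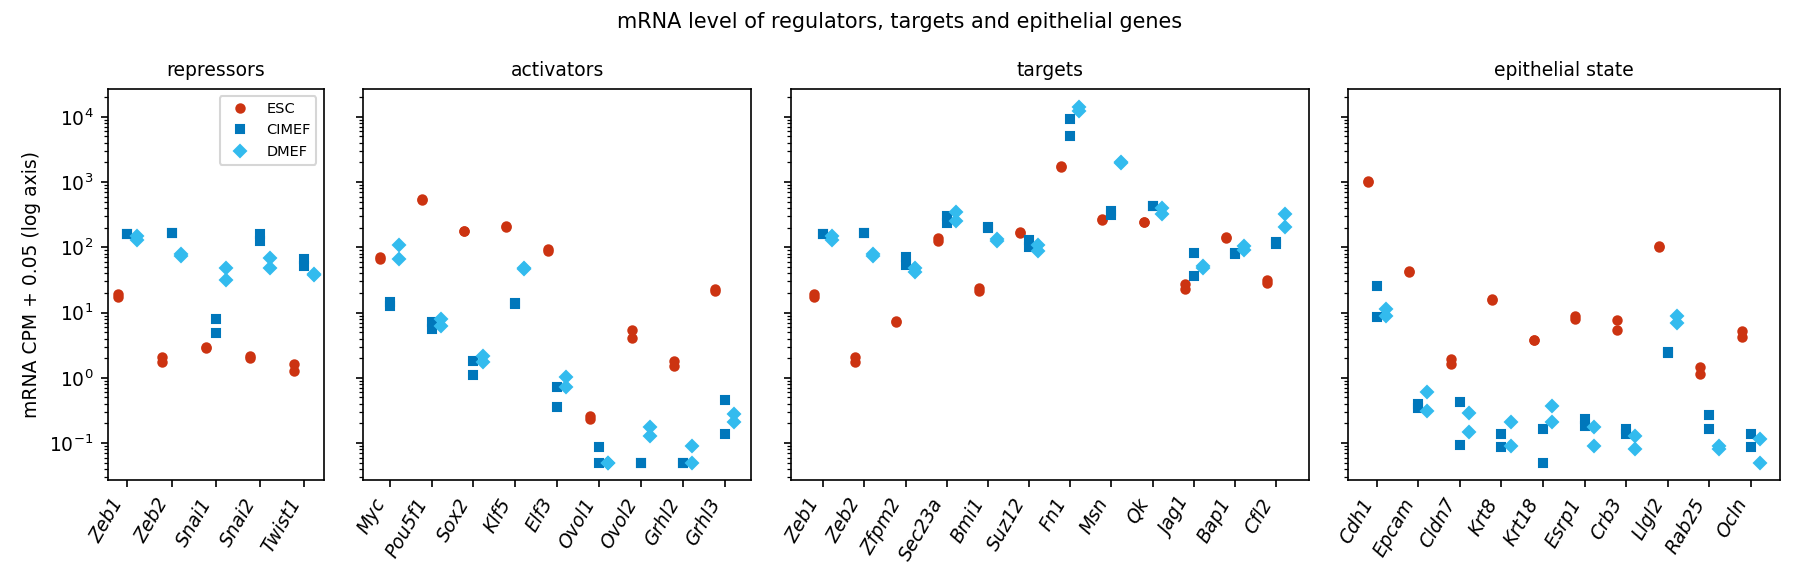
mRNA level (CPM + 0.05, log axis) of the listed repressors, activators, targets and epithelial genes; each point is 1 library of ESC, CIMEF or DMEF. The 5 repressors are lowest in ESC and the 10 epithelial genes highest, and among the targets Suz12 and Bap1 are highest in ESC.

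Of the 12 genes listed as targets of the family from earlier work, 10 passed as lower and 2 as higher against DMEF, and 9 and 2 against CIMEF. Zeb1 and Zeb2 are on this list too. Cfl2, an actin-severing factor, was at 28.1 and 31.1 CPM in ESC and 320 and 202 in DMEF (log2 -3.14, SE 0.24, adjusted p = 4.29e-05). Bmi1, a polycomb protein, was at 21.6 and 23.5 CPM in ESC against 200 and 205 in CIMEF (log2 -3.16, SE 0.14, adjusted p = 4.62e-06). The higher ones were Suz12, another polycomb gene, at 172 and 167 CPM in ESC and 87.6 to 129 in fibroblasts, and Bap1, a deubiquitinase, at 138 and 142 CPM against 78.2 to 104. Msn, which links actin to the membrane, was the target that did not pass against CIMEF (log2 -0.33, adjusted p = 0.0604).

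All 10 genes of the epithelial state list passed as higher in ESC in both comparisons, with median log2 of 6.57 and 5.89. Cdh1, which encodes E-cadherin and is held down by Zeb1 and Zeb2, was at 1031 and 990 CPM in ESC, 8.92 and 11.4 in DMEF, and 25.1 and 8.65 in CIMEF. Krt8, a keratin of simple epithelia, was at 15.7 and 16.3 CPM in ESC and at 0.161 CPM or less in fibroblasts. Epcam stood at 41.8 and 43.1 CPM against 0.560 or less. Ocln, a tight-junction protein, was at 5.14 and 4.13 CPM against 0.0870 or less. In every fibroblast library the 5 stem-cell markers were at 0.2% to 1.48% of their ESC level, while Cdh1 was at 0.883% and 1.13% in DMEF and at 2.49% and 0.857% in CIMEF, 1 library of which lay above that range. The part of stem-cell reads in those values was not tested.

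Between the fibroblast lines 3 repressors passed as higher in CIMEF and 1 as lower, where 19.5% of all genes were higher and 21.1% lower. Zeb2 was higher (log2 1.11, SE 0.13, adjusted p = 0.00164), as were Snai2 (1.28) and Twist1 (0.62), and Snai1 was lower (-2.65, SE 0.31, adjusted p = 0.00156). Zeb1 did not pass (0.19, SE 0.13, adjusted p = 0.29). Of the activators Myc (-2.70) and Klf5 (-1.76) were lower. Ovol2 also passed as lower, with no count in either CIMEF library and 0.0800 and 0.129 CPM in DMEF. Of the targets 2 passed as higher, Zeb2 and Bmi1, and 3 as lower, Msn (-2.59), Cfl2 (-1.16) and Fn1 (-0.90). In the epithelial list Llgl2, a polarity protein, was lower (-1.71), and Cdh1 did not pass (0.73, adjusted p = 0.21). Fibroblast markers also differed between these lines: 4 of 6 passed as higher in CIMEF, among them Dcn (log2 5.05), and Thy1 was at 36.2 and 1.17 CPM in the 2 CIMEF libraries. Trp63 also passed as higher in CIMEF (log2 3.73, adjusted p = 0.0167), as did the macrophage gene Csf1r (log2 3.08, adjusted p = 0.0333), at 0.483 and 0.478 CPM. Adgre1, the other macrophage gene listed, was at 0 CPM in every mRNA library. The part of other cell types in the family counts of CIMEF was not tested.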

How the data were processed

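The authors deposited unnormalized counts per mature miRNA or gene, and all values start from them. Per the submitters' processing notes, cutadapt, STAR 2.4 and HTSeq 0.9.1 were used with mm10/GRCm38; the notes of CyrKO and ESC course 2 name cutadapt only. Whether duplicate reads were removed is not given in the sources used here. The members and gene lists were chosen with earlier results of these data known.

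Counts of a course were summed, and edgeR 4.0.16 (TMM, its expression filter, quasi-likelihood test, all 7 courses in 1 fit, R 4.3.3) compared lines, with two-sided p-values adjusted over all features by Benjamini-Hochberg and a threshold of 0.05. DESeq2 1.42.0 was an alternative. CPM of miRNAs use unscaled miRNA totals. Half-lives came from y = A(1 - exp(-kt)) on a grid of 400 values from 0.25 to 240 h, weighted for counting error and a noise of 0.2, for miRNAs with at least 50 EU counts and 4 times. The sized standards were chosen as scale after the data were seen. Both procedures were tested on simulated data. In EU against input, the course pairs samples because both come from the same cells. Genes named are the 5 members, their other strands, Zeb1, Zeb2, Cdh1, the 2 largest changes that passed per list and contrast, and the 5 miRNAs nearest in pattern; list members that did not pass or went against their list were added after their values were seen. miR-203-3p and miR-199a-3p of the marker lists were not matched by name and have no value. Of 105 samples, 5 second sequencing runs share a column with the first.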

Additional observations from a re-analysis of the deposited data

How the results depend on the processing

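Of 120 recomputed counts and half-lives, 109 stayed within 1.5 times the reported count or within 1 SD, and 11 moved. The calls of all 5 members as higher in ESC, in input and EU, were made under every alternative run, the replicate block by course number included. In EU, members other than miR-141-3p passed the expression filter only through their ESC counts. Their EU calls thus add nothing to the counts themselves. The labels do not say whether course numbers pair the lines. In input, r of deviations was 0.26 for CIMEF and DMEF, 0.11 for CIMEF and ESC and 0.08 for DMEF and ESC. In EU it was 0.28, -0.03 and 0.06. Whether CIMEF and DMEF course 1 shared a batch was not tested. The replicate block by course number left 0 calls between CIMEF and DMEF EU, where DESeq2 made 1 and leaving out a course 0 to 2. For the rise of input with time in ESC (3 calls), scaling to the standards gave 0, leaving out a course 0 to 1, and the fit with no replicate block 2. For EU over 1 to 4 h, the replicate block by course gave 5 lower and 1 and 2 h only gave 2. For EU over 16 to 24 h, the replicate block gave 4 higher. The median half-life of the members, 152 h, is set by the end of the grid: it was 2.41 h per EU total, 17.0 h per input level, and 64.9 to 240 h in single courses. The standards dme-miR-14 and xtr-miR-427, an alternative chosen after seeing the data, gave 123 h. Of 415 log2 values of single members, 11 lost and 19 gained a call, and 11 changed sign or went to 0, none of them called. In input, CIMEF minus DMEF, miR-200a-3p (-0.23) ran from -1.22 to 1.38 when a course was left out, and miR-429-3p (-0.16) from -1.55 to 5.12, with 0.062 under the replicate block. In EU, leaving out a course gave -2.25 to 2.4 for miR-200a-3p (-0.14), 0 to 2.08 for miR-200b-3p (1.66) and 0 to 2.97 for miR-429-3p (1.95). The slope of miR-141-3p (0.04) was -0.087 without the 24 h libraries. Scaling to the standards between lines was not run, because counts of the named standards in input were far lower in CIMEF and DMEF course 1 than in the other courses. Leaving out a course over 16 to 24 h leaves no residual degrees of freedom. Depth limits the EU values: early ESC libraries held few family counts.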
